A study of Homo sapiens with 4 samples.

Results

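GFI1 and GFI1B, with 6 genes of the LSD1-CoREST repressor machinery that they recruit, were followed in a pair of sorted fractions of human embryonic stem cell derivatives by RNA sequencing. The members were taken by gene symbol: GFI1, GFI1B, KDM1A, RCOR1, RCOR2, RCOR3, HDAC1 and HDAC2. Each matched 1 row, so 8 of 28285 gene rows were members, and all 8 reached the level needed for testing. The GFP-positive fraction was eGFP+CD34+CD31+CD43-, labelled as hemogenic endothelium, the vessel lining that gives rise to blood. The GFP-negative fraction was eGFP-CD34+CD31+CD43-, labelled as endothelial cells. Both were made from the established line H1 (human embryonic stem cells) with a GATA2/eGFP knockin, which the series text writes as GATA2w/eGFP. Both fractions therefore carry the altered GATA2 locus. All titles also name Cre, whose role the labels do not give, and carry the same initials for hemogenic endothelium in both fractions. Each fraction had 2 libraries. Separate cultures are not stated, and a p-value here covers the library-to-library spread, possibly technical. The time of differentiation is not given in the sources used here.

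GFI1 and GFI1B are zinc-finger repressors that bind DNA with their C-terminal fingers. Through a short N-terminal SNAG domain they hold LSD1, the product of KDM1A, a demethylase that removes methyl groups from lysine 4 of histone H3. LSD1 is stabilised and brought to nucleosomes by a CoREST scaffold, encoded by RCOR1, RCOR2 or RCOR3. The scaffold also holds the histone deacetylases HDAC1 or HDAC2. In mouse embryos, Gfi1, Gfi1b and Lsd1 act in the shutdown of endothelial genes as hemogenic endothelium turns into blood.

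RefSeq promoter windows on GRCh38.p14, each from 250 bases before a gene start to 50 bases after it, were found for 7 of the 8 members by symbol, and none was matched for RCOR2. GFI1 had 3 such windows and GFI1B had 2. A window of each is shown because GFI1 was the member called different between fractions and GFI1B is its paralog. Which window to show was chosen after the letters had been searched, and for GFI1 it is the 1 of 3 with matches, lying inside the gene as GENCODE draws it, while the window that reaches the GENCODE gene start at 92486876 held none. Capitals mark matches, on either strand, to GATA-family letters, read as AGATAA, as its variant AGATAG, as the form TGATAA and as its variant TGATAG, and to RUNX-family letters, read as TGTGGT and as its variant TGCGGT. Blood factors of these families, GATA2 and RUNX1, are described with GFI1. The GFI1 window is chr1:92486050-92486349 on the minus strand, and the GFI1B window is chr9:132978444-132978743 on the plus strand, both written 5′ to 3′.
GFI1: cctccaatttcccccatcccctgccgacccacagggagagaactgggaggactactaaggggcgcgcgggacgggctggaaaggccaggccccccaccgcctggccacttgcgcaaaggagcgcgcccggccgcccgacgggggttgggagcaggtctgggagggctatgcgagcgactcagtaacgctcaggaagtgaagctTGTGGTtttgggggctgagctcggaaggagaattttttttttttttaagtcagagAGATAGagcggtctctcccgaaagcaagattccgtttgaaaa
GFI1B: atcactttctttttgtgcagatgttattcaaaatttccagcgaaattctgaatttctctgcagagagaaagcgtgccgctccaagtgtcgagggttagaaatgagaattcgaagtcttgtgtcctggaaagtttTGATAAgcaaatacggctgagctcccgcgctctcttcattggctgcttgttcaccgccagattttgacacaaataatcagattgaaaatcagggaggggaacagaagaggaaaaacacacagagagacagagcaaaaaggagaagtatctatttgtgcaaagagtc
In the GFI1 window, TGTGGT lay at bases 204 to 209 and AGATAG at bases 259 to 264. In the GFI1B window, TGATAA lay at bases 135 to 140, with no RUNX match. The other GFI1B window held 1 GATA match, AGATAG, and the other GFI1 windows held no match to either set. KDM1A and RCOR3 windows each held 1 RUNX match, TGCGGT, while those of RCOR1, HDAC1 and HDAC2 held neither. Of 35116 RefSeq windows of this length, 25% held a GATA match, 19.6% a RUNX match and 5.05% both. No match overlapped another in the members. A search for AATCAC and its variant AATCTC, around the AATC core that GFI1 and GFI1B recognise, found no match in any member's window, against 19.2% of all windows. Letters this short recur often, and a match is not a binding site.

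TPM scales reads by transcript length and library total, so members can be compared with each other. Read totals are unknown, since TPM keeps no depth. Between 14730 and 15109 genes reached 1 TPM per library. Pearson's correlation of log2(TPM + 1) across genes was 0.926 between GFP-positive libraries and 0.939 between GFP-negative libraries, against 0.904 to 0.921 across the fractions. The fractions were compared with limma on log2(TPM + 1) over the 15425 genes that reached 1 TPM in 2 or more libraries. Every log2 fold change is GFP-positive over GFP-negative, with its standard error (SE), and understates changes of low genes. Adjusted p-values are Benjamini-Hochberg values over all genes tested, with 0.05 as threshold. At that threshold 0.447% of genes were called, 0.123% higher and 0.324% lower in GFP-positive cells. These were 19 higher and 50 lower calls, a balance that turned to 17 higher and 1 lower without GFP-negative replicate 1 and to 36 higher and 29 lower without GFP-negative replicate 2.

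Of the 8 members, 1 rose, 0 fell and 7 did not pass. GFI1 rose, and it was also the 1 member with an unadjusted limma p under 0.05, a level that 14.1% of all genes reached. The members' median log2 fold change was 0.11, against 0.02 over all genes tested. Libraries of the fractions did not overlap for GFI1, KDM1A and RCOR1, each higher in both GFP-positive libraries. Such a gap, upward, was seen in 22.8% of all genes tested, and in either direction in 44.3%. A share of 3 in 8 thus stands near that background.

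**Figure D1:**
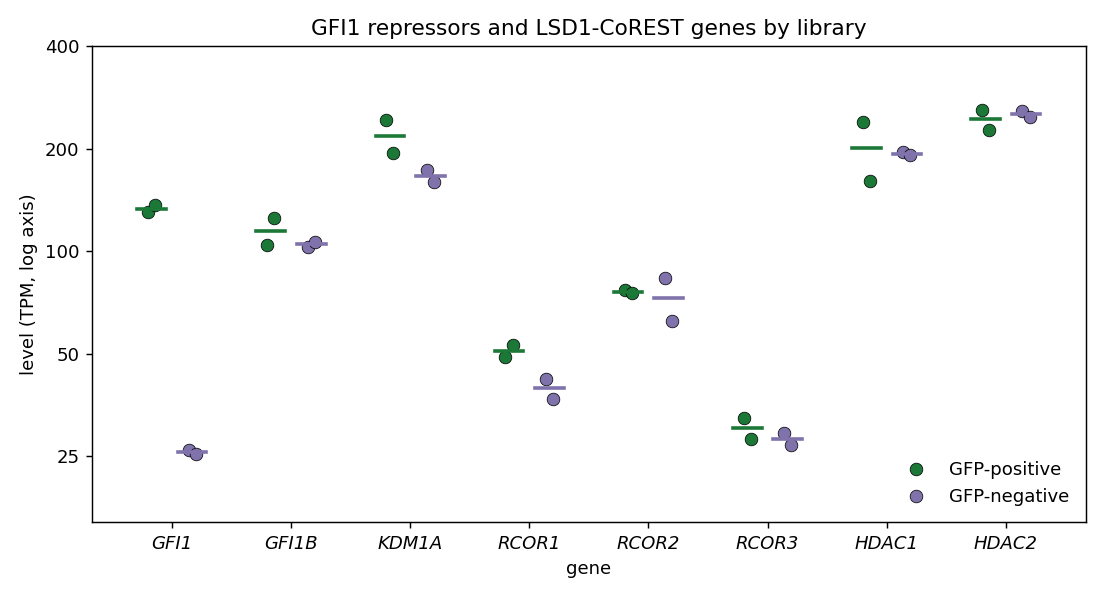
Level of each member (TPM, log axis) in every library, with GFP-positive libraries left of GFP-negative libraries and a bar at each mean of 2 libraries. GFI1 stands at 130 and 136 TPM in GFP-positive cells against 26.1 and 25.3 TPM in GFP-negative cells, while the fractions lie close together for the other members.

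GFI1 (ENSG00000162676; chromosome 1 of GRCh38 in GENCODE v29, 92474762 to 92486876, minus strand) had 130 and 136 TPM in GFP-positive libraries 1 and 2, against 26.1 and 25.3 TPM in GFP-negative libraries 1 and 2. Replicates lay close together in both fractions, and the gap between fractions far exceeded their spread. The GFP-positive mean was 133 ± 4.06 TPM and the GFP-negative mean 25.7 ± 0.544 TPM (SD, n = 2 each), a ratio of 5.18. The log2 fold change was 2.33 ± 0.18 (SE; 95% interval 1.89 to 2.77; limma adjusted p = 0.0316), and GFI1 ranked 5 by p among the genes tested. GFI1 ranked 22 with replicate number as a block, 31 with no variance trend and 5 to 8 under the other alternatives that keep all 4 libraries. It passed with each library left out in turn, at adjusted p-values of 0.0192 to 0.0385. GFI1 missed the threshold, at an almost equal fold change, with a pseudocount of 0.1 (limma adjusted p = 0.0638), with low values left in (0.0948) and with no variance trend (0.133), settings in which limma called 0 genes in all.

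GFI1B (ENSG00000165702; chromosome 9, 132944000 to 132991687, plus strand) is the paralog best known from erythroid and megakaryocytic cells. It had 104 and 125 TPM in GFP-positive libraries, against 103 and 107 TPM in GFP-negative libraries. The fractions overlapped. The GFP-positive mean was 115 ± 14.6 TPM and the GFP-negative mean 105 ± 2.52 TPM (SD, n = 2 each). GFI1B did not pass (limma adjusted p = 0.823) at a log2 fold change of 0.12 ± 0.17 (SE), and its 95% interval of -0.29 to 0.54 lies wholly below that of GFI1. The GFI1B locus overlaps TSC1 on the opposite strand over 2875 bases. TSC1 had 23.3 and 31.6 TPM in GFP-positive libraries, against 27.3 and 27.0 TPM in GFP-negative libraries. Of the 50-base words in GFI1B transcripts, 5.0% also occur in transcripts of other genes, most of all TSC1, against 0 of 3247 words for GFI1. Whether reads were counted by strand is not given in the sources used here, so some GFI1B reads may not be separable from TSC1.

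Because TPM is per length, the paralogs could be added. GFI1 made up 55.5% and 52.1% of the summed GFI1 and GFI1B TPM in GFP-positive libraries, against 20.2% and 19.2% in GFP-negative libraries. GFI1B was thus the more abundant paralog in both GFP-negative libraries, and GFI1 in both GFP-positive libraries. The GFP-positive mean was 53.8 ± 2.42% and the GFP-negative mean 19.7 ± 0.715% (SD, n = 2 each), a difference of 34.1 percentage points. An exact two-sided permutation test gave p = 0.333, the smallest that 2 against 2 libraries allow (adjusted p = 0.556 over 5 shares). The sum of both paralogs was 235 and 261 TPM in GFP-positive libraries, against 129 and 132 TPM in GFP-negative libraries.

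**Figure D2:**
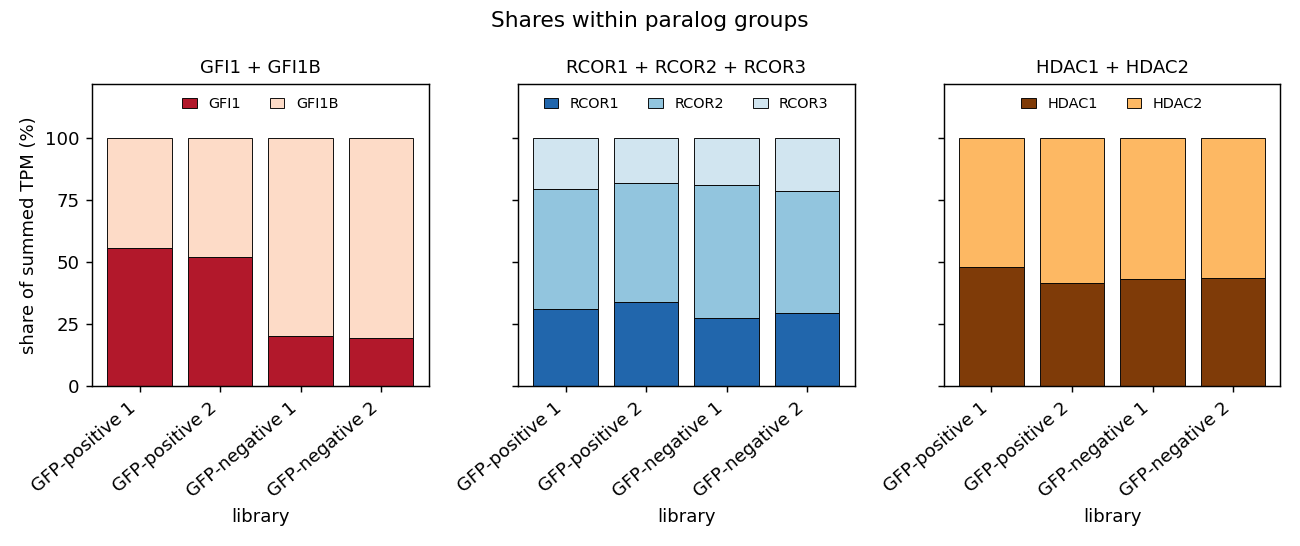
Share of summed TPM (%) taken by each paralog in each library, for GFI1 and GFI1B, the CoREST genes RCOR1 to RCOR3, and HDAC1 and HDAC2, with GFP-positive libraries on the left of each panel. GFI1 holds 55.5% and 52.1% in GFP-positive libraries against 20.2% and 19.2% in GFP-negative libraries, and the other panels vary by a few percentage points.

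KDM1A (ENSG00000004487; chromosome 1, 23019443 to 23083689, plus strand), the gene of LSD1, was among the more abundant members. It had 242 and 193 TPM in GFP-positive libraries, against 173 and 160 TPM in GFP-negative libraries. Neither GFP-negative library reached the level of a GFP-positive one, but the GFP-positive pair differed by more than the gap between fractions. KDM1A averaged 218 ± 34.4 TPM with GFP and 166 ± 9.14 TPM without it (SD, n = 2 each). Its log2 fold change of 0.38 ± 0.17 (SE; 95% interval -0.03 to 0.78) did not pass (limma adjusted p = 0.385). It ran from 0.22 without GFP-positive replicate 1 to 0.54 when replicate 2 was left out instead, passing in neither.

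RCOR1 (ENSG00000089902; chromosome 14, 102592661 to 102730576, plus strand) encodes CoREST1, the founding scaffold. It had 48.8 and 53.1 TPM in GFP-positive libraries, against 42.2 and 36.9 TPM in GFP-negative libraries. The fractions did not overlap, by a gap close to the spread within each. Its mean was 50.9 ± 3.02 TPM with GFP and 39.6 ± 3.75 TPM without it (SD, n = 2 each). The log2 fold change of 0.36 ± 0.21 (SE; 95% interval -0.14 to 0.86) did not pass (limma adjusted p = 0.506). RCOR2 (ENSG00000167771; chromosome 11, 63911221 to 63916844, minus strand), a scaffold known from pluripotent and neural cells, was the most abundant of the 3 in every library. It had 76.9 and 75.2 TPM in GFP-positive libraries, between the 83.1 and 62.2 TPM of GFP-negative libraries. RCOR3 (ENSG00000117625; chromosome 1, 211258377 to 211316385, plus strand), a paralog that opposed LSD1 action in blood cell lines of the mouse, was the least abundant. It had 32.3 and 28.1 TPM in GFP-positive libraries, against 29.3 and 27.0 TPM in GFP-negative libraries. For both the fractions overlapped, with log2 fold changes of 0.08 ± 0.20 for RCOR2 (95% interval -0.42 to 0.58; limma adjusted p = 0.918) and 0.10 ± 0.24 for RCOR3 (-0.49 to 0.68; 0.914).

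Within the CoREST pool, shares differed by a few percentage points. RCOR1 took 30.9% and 33.9% of the summed RCOR TPM in GFP-positive libraries, against 27.3% and 29.3% in GFP-negative libraries. RCOR2 took 48.7% and 48.1% in GFP-positive libraries, against 53.8% and 49.3% in GFP-negative libraries. These small shifts each gave an exact two-sided permutation p of 0.333, again the smallest possible (adjusted p = 0.556). For RCOR3 the libraries overlapped, at 20.4% and 18.0% in GFP-positive cells and 18.9% and 21.4% in GFP-negative cells (exact permutation p = 0.667, adjusted 0.833).

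HDAC1 (ENSG00000116478; chromosome 1, 32292086 to 32333635, plus strand) had 240 and 161 TPM in GFP-positive libraries, against 195 and 191 TPM in GFP-negative libraries. The GFP-positive libraries lay on either side of the GFP-negative ones. HDAC1 averaged 200.2 ± 56.0 TPM with GFP and 193 ± 2.55 TPM without it (SD, n = 2 each), and its log2 fold change was 0.02 ± 0.21 (SE; 95% interval -0.49 to 0.54; limma adjusted p = 0.982). The sign rested on 1 library, with -0.27 without GFP-positive replicate 1 and 0.31 when replicate 2 was left out instead. HDAC2 (ENSG00000196591; chromosome 6, 113933028 to 114011308, minus strand) had 260 and 227 TPM in GFP-positive libraries, against 257 and 248 TPM in GFP-negative libraries. It was the most abundant member in all 4 libraries and the 1 member with a log2 fold change below 0, at -0.06 ± 0.14 (SE; 95% interval -0.40 to 0.29; limma adjusted p = 0.917). HDAC1 held 48.0% and 41.4% of the summed HDAC1 and HDAC2 TPM in GFP-positive libraries, against 43.1% and 43.6% in GFP-negative libraries, which overlap (exact permutation p = 1).

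**Figure D3:**
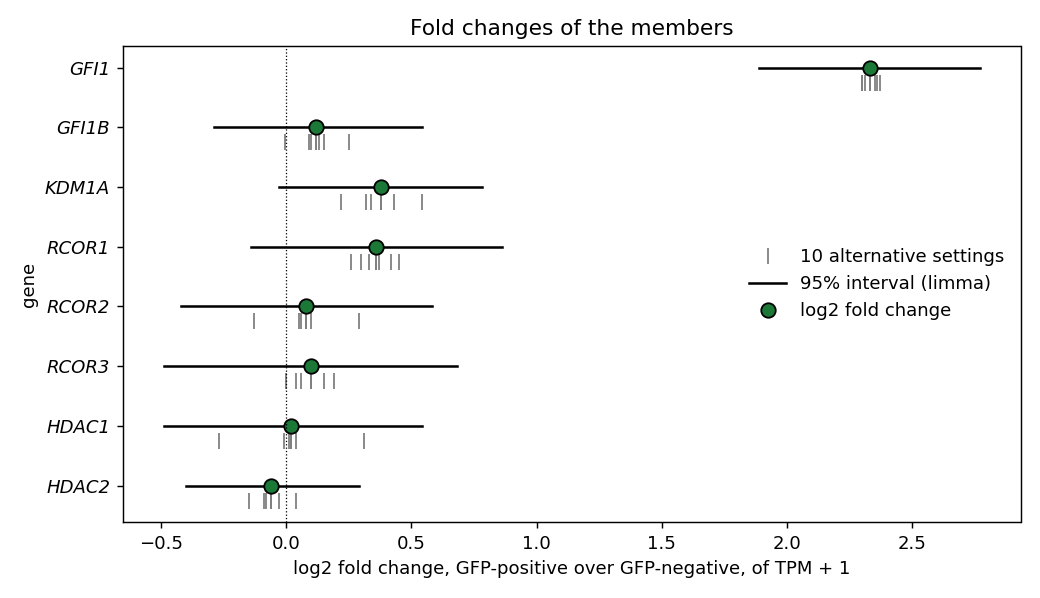
Log2 fold change of TPM + 1, GFP-positive over GFP-negative, for each member (circle) with its 95% interval from limma (line) and its value under 10 alternative settings (grey ticks). GFI1 stands at 2.33 with an interval of 1.89 to 2.77, and the intervals of the other 7 members include 0.

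The order of the members shows the same contrast. HDAC2 ranked 1 and the HDAC1 and KDM1A levels ranked 2 or 3 in every library. GFI1 ranked 4 of 8 in both GFP-positive libraries and 8 of 8 in both GFP-negative libraries, below RCOR3. GFI1B ranked 5 in GFP-positive and 4 in GFP-negative libraries. Among neighbours in GFP-positive cells, KDM1A and HDAC1 overlapped across their libraries, while GFI1 lay above GFI1B in both without overlap.

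Other subunits and associated proteins of the LSD1-CoREST complex, 11 genes, had 0.09 as median log2 fold change, with 9 above 0 and 2 below, against 51.8% above 0 over all genes. By limma 0 rose and 0 fell, and 1 had an unadjusted p under 0.05, against 14.1% of all genes. That gene was GSE1, a coiled-coil protein found with LSD1-CoREST, which had 97.4 and 87.4 TPM in GFP-positive libraries, against 42.4 and 51.5 TPM in GFP-negative libraries. Its libraries did not overlap, and it did not pass (limma adjusted p = 0.112; log2 fold change 0.97 ± 0.20, SE). PHF21A, the BHC80 reader of unmethylated lysine 4 of histone H3, had 40.4 and 52.0 TPM in GFP-positive and 34.3 and 34.4 TPM in GFP-negative libraries (limma adjusted p = 0.497). On the other side of 0, the zinc-finger gene ZNF217 had a log2 fold change of -0.20, with overlapping libraries.

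HDAC1 and HDAC2 also serve the NuRD, SIN3 and MiDAC complexes. Of 23 other genes of these complexes, 0 passed in limma and 1 had an unadjusted p under 0.05, against 14.1% of all genes. Their median log2 fold change was 0.10, with a range of -0.43 to 0.55. CHD4, the remodelling ATPase of NuRD, had 311 and 417 TPM in GFP-positive libraries, against 276 and 218 TPM in GFP-negative libraries (log2 fold change 0.55 ± 0.20, SE; limma adjusted p = 0.299). RBBP4, a histone chaperone of NuRD and SIN3, had 307 and 308 TPM in GFP-positive and 223 and 278 TPM in GFP-negative libraries (limma adjusted p = 0.447). Below 0, RBBP7 had 110 and 124 TPM in GFP-positive and 130 and 149 TPM in GFP-negative libraries, and ARID4B, a SIN3 subunit, had 17.8 and 16.9 TPM in GFP-positive and 22.8 and 24.3 TPM in GFP-negative libraries (limma adjusted p = 0.556 for each). Neither other class I deacetylase passed in limma, and 0 had an unadjusted p under 0.05: the log2 fold changes were -0.53 for HDAC8 and -0.19 for HDAC3.

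SNAG domains also occur in other repressors that bind LSD1. Of 8 such genes, 3 were measured at a testable level, and the other 5 stayed below 1 TPM in every library. SNAI1, the Snail repressor of epithelial genes, had 21.2 and 18.9 TPM in GFP-positive libraries, against 48.6 and 44.0 TPM in GFP-negative libraries. These libraries did not overlap, and SNAI1 did not pass (log2 fold change -1.17 ± 0.23, SE; limma adjusted p = 0.111). SNAI2 had 10.9 and 11.0 TPM in GFP-positive and 15.8 and 20.0 TPM in GFP-negative libraries (limma adjusted p = 0.433), and SNAI3 stayed below 2 TPM. Over these 3 genes, limma gave 0 passes and 1 unadjusted p under 0.05, a level that 14.1% of all genes reached.

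Among 11 other proteins reported to bind GFI1 or GFI1B, 0 passed in limma and 2 had an unadjusted p under 0.05, against 14.1% of all genes. The median log2 fold change was 0.13. CBFA2T3, the corepressor ETO2 of erythroid and stem cells, had 65.6 and 70.7 TPM in GFP-positive libraries, against 24.2 and 23.7 TPM in GFP-negative libraries. It stood just outside the threshold (limma adjusted p = 0.056) with 1.47 ± 0.21 (SE) as log2 fold change. SPI1, the myeloid and lymphoid factor PU.1, which GFI1 binds and restrains, had 31.4 and 46.9 TPM in GFP-positive and 14.7 and 8.44 TPM in GFP-negative libraries (1.69 ± 0.37; limma adjusted p = 0.132). Below 0, CBFA2T2 and RUNX1T1, the other ETO-family genes, had log2 fold changes of -0.24 and -0.17.

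Of 8 blood factors reported upstream of GFI1 or GFI1B, 2 rose, 0 fell and 6 did not pass, where 0.123% of all genes rose. An unadjusted p under 0.05 was reached by 6 of the 8, 4 higher and 2 lower, against 14.1% of all genes. The list was chosen with earlier results of these data known and holds the sorting gene GATA2, so these counts are a description. GATA2, by whose reporter the cells were sorted, had 302 and 385 TPM in GFP-positive libraries, against 80.2 and 87.3 TPM in GFP-negative libraries (log2 fold change 2.01 ± 0.17, SE; limma adjusted p = 0.0316). MYB, which definitive blood formation needs, had 59.8 and 58.4 TPM in GFP-positive and 13.0 and 8.92 TPM in GFP-negative libraries (2.35 ± 0.28; limma adjusted p = 0.0439), and with each library left out it missed, at 0.0535 to 0.0808. RUNX1, which activates Gfi1 and Gfi1b in mouse hemogenic endothelium, had 198 and 328 TPM in GFP-positive and 96.5 and 134 TPM in GFP-negative libraries (1.16 ± 0.28; limma adjusted p = 0.159). ERG, which is also in the endothelial list below, and TAL1 were at -1.02 and -0.54 and did not pass. GATA1, which in erythroid cells acts on GFI1B, had 17.6 and 8.40 TPM in GFP-positive libraries, against 3.08 TPM in the first GFP-negative library and was listed at 0 in the second.

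Reported direct targets of GFI1 or GFI1B in blood cells numbered 24, of which 22 were tested, with 11 log2 fold changes above 0, 11 below and a median of 0.06. By limma 3 rose, 1 fell and 18 missed the threshold, where 0.123% of all genes rose and 0.324% fell. At an unadjusted p under 0.05 stood 14 of the 22, 9 higher and 5 lower in GFP-positive cells, against 14.1% of all genes. Those that rose were GATA2, MYB and GFI1 itself, whose product is reported to bind and repress its own gene. GATA2 is the gene by whose reporter the cells were sorted. This list was also chosen with earlier results of these data known, so its counts are a description. ID1, an inhibitor of basic helix-loop-helix factors, was the 1 that fell, with 179 and 195 TPM in GFP-positive libraries, against 410 and 422 TPM in GFP-negative libraries (log2 fold change -1.15 ± 0.13, SE; limma adjusted p = 0.0413). It missed with each library left out, at adjusted p-values of 0.0597 to 0.121. HOXA9, a homeobox gene of blood stem cells, had 1.84 and 1.98 TPM in GFP-positive and 12.3 and 12.2 TPM in GFP-negative libraries (limma adjusted p = 0.102). SOCS3, a brake on cytokine signalling, had 94.6 and 58.6 TPM in GFP-positive and 137 and 135 TPM in GFP-negative libraries (limma adjusted p = 0.212). ID2 lay on the other side, with 410 and 418 TPM in GFP-positive libraries, against 268 and 216 TPM in GFP-negative libraries (limma adjusted p = 0.107). RGS18, a regulator of G protein signalling in megakaryocytes and a GFI1B target, had 3.40 and 8.35 TPM in GFP-positive libraries and was listed at 0 in both GFP-negative libraries. It reached the level needed for testing through the GFP-positive libraries alone, and it is counted among the 9 higher. CDKN1A and BCL2L1, further reported targets, had log2 fold changes of -0.04 and 0.00 with overlapping libraries. This list shares GATA2 and MYB with the upstream factors, SPI1 with the partners, and GFI1 and GFI1B with the members.

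Endothelial genes, which the mouse repressors help to shut down, were lower in both GFP-positive libraries than in both GFP-negative libraries for 15 of 15 genes chosen here, against 21.5% of all genes. By limma 2 fell and 13 did not pass, where 0.324% of all genes fell. All 15 had an unadjusted p under 0.05, against 14.1% of all genes, and their median log2 fold change was -1.09. These 15 genes were known from earlier results to be lower, so the counts are a description, and any link to GFI1 or GFI1B was not tested. RAMP2, a co-receptor for adrenomedullin, had 47.8 and 40.3 TPM in GFP-positive and 514 and 261 TPM in GFP-negative libraries (limma adjusted p = 0.0391; log2 fold change -3.03 ± 0.32, SE). SOX7, an endothelial transcription factor, had 71.5 and 72.5 TPM in GFP-positive and 202 and 184 TPM in GFP-negative libraries (-1.41 ± 0.15; limma adjusted p = 0.0391), and with each library left out it missed, at 0.0541 to 0.130. Next in p were EMCN at -3.06 (limma adjusted p = 0.0519) and CDH5 at -1.10 (0.0524).

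**Figure D4:**
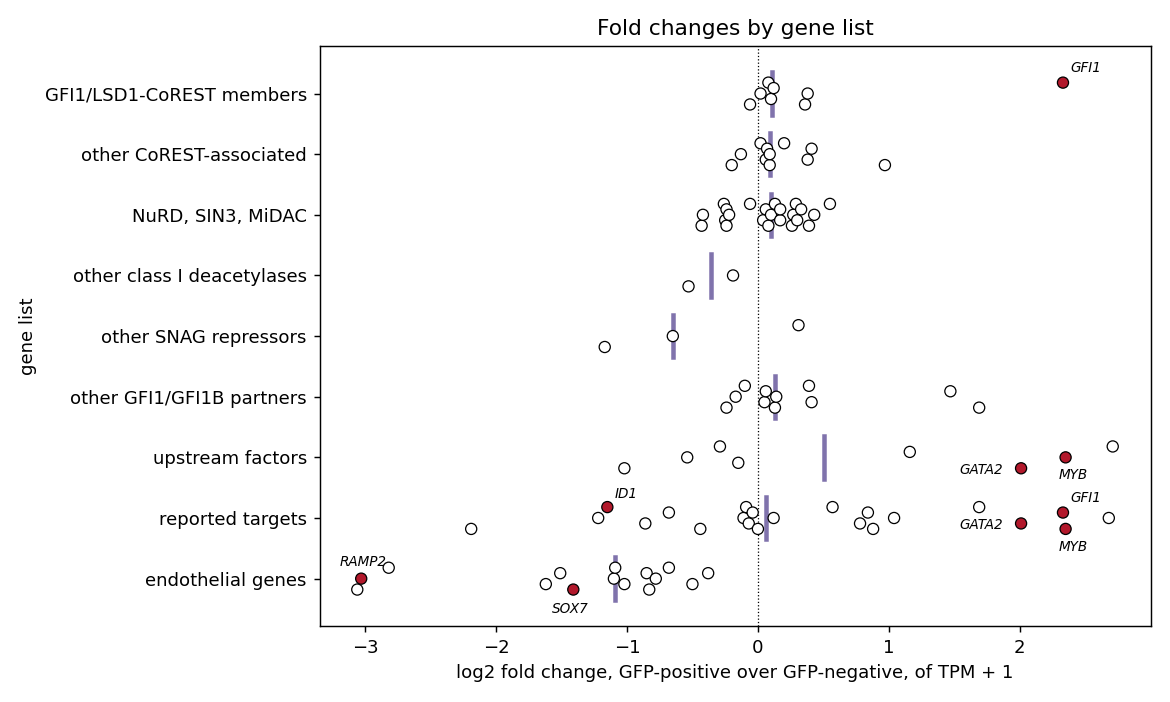
Log2 fold change of TPM + 1, GFP-positive over GFP-negative, of each tested gene by list (circles; filled and named where limma adjusted p was under 0.05), with a bar at each list's median. GFI1 at 2.33 stands apart from the other LSD1-CoREST members, the 15 endothelial genes lie below 0, and the reported targets spread on both sides.

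Some markers of other cell types also differed between the fractions, and their part in the rise of GFI1 was not tested. Summed TPM of 11 erythroid markers was 353 and 199 in GFP-positive libraries, against 46.7 and 36.4 in GFP-negative libraries. Of these markers 1 rose, HBG2, a fetal globin gene, and 0 fell, where 0.123% of all genes rose. At an unadjusted p under 0.05, 6 of 9 tested were higher, against 14.1% of all genes in either direction. HBG1, counted among the 6, reached 1 TPM in the GFP-positive libraries alone and so was tested through them. AHSP was at 0 in all 4 libraries. All marker lists were chosen with earlier results of these data known. For 9 myeloid markers the sums were 46.4 and 70.5 TPM in GFP-positive and 28.4 and 23.8 TPM in GFP-negative libraries. ELANE and PRTN3 were at 0 in all 4 libraries. Only 4 of the 9 were tested, of which 0 passed in limma and 1 had an unadjusted p under 0.05, against 14.1% of all genes. SPI1, also listed as a partner and a target, was that gene and supplied most of the difference: the other 8 markers summed to 15.0 and 23.7 TPM in GFP-positive libraries, against 13.7 and 15.3 TPM in GFP-negative libraries. Megakaryocyte and platelet markers, 8 genes, summed to 182 and 215 TPM in GFP-positive and 173 and 174 TPM in GFP-negative libraries. PPBP was at 0 in all 4 libraries. Of the 7 tested, 0 passed in limma and 3 had an unadjusted p under 0.05, against 14.1% of all genes. Those 3 went opposite ways, with log2 fold changes of 1.26 for ITGA2B and 1.57 for GP1BA but -1.16 for VWF, which endothelium also expresses. Without VWF the sums were 145 and 182 TPM in GFP-positive libraries, against 86.1 and 101 TPM in GFP-negative libraries. Mesenchymal markers, 7 genes, summed to 1012 and 938 TPM in GFP-positive and 519 and 637 TPM in GFP-negative libraries. All 7 were tested, with 0 passing in limma and 2 at an unadjusted p under 0.05, against 14.1% of all genes. These sums were mostly the collagen genes COL1A1, COL1A2 and COL3A1. The 2 genes were COL1A1 and COL3A1, at log2 fold changes of 1.17 and 1.06. COL1A2 and the low genes PDGFRA, PDGFRB, LUM and DCN overlapped between the fractions. Pluripotent markers, 6 genes, summed to 570.0 and 463 TPM in GFP-positive and 396 and 389 TPM in GFP-negative libraries, mostly LIN28A. Of the 4 tested, 0 passed in limma and 2 had an unadjusted p under 0.05, against 14.1% of all genes. Of these 2, LIN28A had a log2 fold change of 0.54 and POU5F1, the gene of the pluripotency factor OCT4, one of -2.60, with 0.93 and 0.03 TPM in GFP-positive libraries, against 9.68 and 5.88 TPM in GFP-negative libraries. Without LIN28A the sums overlapped, at 92.6 and 76.9 TPM in GFP-positive and 92.3 and 102 TPM in GFP-negative libraries. Endothelial markers, 8 genes, summed to 2406 and 2624 TPM in GFP-positive and 4776 and 4448 TPM in GFP-negative libraries. Apart from CD34, these are also among the 15 endothelial genes above. All 8 were lower in both GFP-positive libraries than in both GFP-negative libraries, against 21.5% of all genes. All 8 also had an unadjusted p under 0.05, against 14.1% of all genes. By limma 1 fell and 7 did not pass, where 0.324% of all genes fell. That gene, CD34, on which both fractions were sorted, had 458 and 536 TPM in GFP-positive libraries, against 1232 and 1199 TPM in GFP-negative libraries (limma adjusted p = 0.0316). CD34 missed the threshold when GFP-positive replicate 1 was left out (limma adjusted p = 0.0504), and likewise for GFP-negative replicate 1 (0.0908). These markers were thus detected in both fractions. SPN, the gene of CD43, had 16.9 and 10.2 TPM in GFP-positive and 9.66 and 11.1 TPM in GFP-negative libraries, with overlapping libraries, and PECAM1, the gene of CD31, is not analysed here. In sorted bulk samples, more cells of a type and more RNA per cell cannot be told apart.

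Genes most like GFI1 were sought among 11736 other tested genes with a mean above 5 TPM, by the Euclidean distance between centred log2(TPM + 1) values over 4 libraries. The nearest was ITGB3, the integrin beta chain of platelets and endothelium, at a distance of 0.109, with 30.7 and 29.5 TPM in GFP-positive libraries, against 5.11 and 5.36 TPM in GFP-negative libraries. MBNL3, a splicing regulator, followed at 0.243, then KCNH2, a potassium channel, at 0.245, IL2RB, a cytokine receptor chain, at 0.317 and GRM3, a glutamate receptor, at 0.326. With 4 libraries, a small distance shows little beyond a similar gap between fractions. GFI1B lay nearest to AHNAK, ATF2, TGFB1, MAP4K5 and TFRC, at distances of 0.0362 to 0.0474, all with log2 fold changes of 0.12 to 0.15.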

How the data were processed

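RNA was taken from cells differentiated from H1 GATA2/eGFP knockin cells and sorted by eGFP. Trizol was used for extraction and an Illumina TruSeq RNA kit for libraries, per the labels' protocols. Groups and replicate numbers came from the titles. The authors deposited 1 table per library with a gene identifier, a symbol and a TPM value. Bowtie, RSEM and the builds hg19 and mm10 are named in the submitters' processing notes, with neither version nor role. The tables do not state the unit, which was read from values that sum to between 996324 and 997293.

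Limma 3.58.1 in R 4.3.3 was fitted to log2(TPM + 1), using a variance trend, for genes that reached 1 TPM in 2 or more of 4 libraries. The fit was also run on simulated data with planted changes larger than that of any member, so smaller changes were not tried there. P-values were two-sided and adjusted over all genes tested. Shares within paralog groups were compared with an exact permutation test. Depth and counting error cannot be had from TPM. Gene coordinates are from GENCODE v29 on GRCh38, promoter windows from RefSeq on GRCh38.p14, and neither need match the authors' annotation. From each list, genes past the threshold and the 2 with the smallest p on each side of 0 were to be named, and 1 of these is not reported here. Other genes were named after their values were seen. List genes were matched to rows by gene identifier or symbol. Members and lists were chosen with earlier results of these data known. Alternatives were another pseudocount, other filters, no trend, upper quartile scaling, a replicate block and each library left out.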

Additional observations from a re-analysis of the deposited data

How the results depend on the processing

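Limma called 69 genes, 1 of them a member. A pseudocount of 0.1, no filter on low values and no variance trend each gave 0 genes and 0 members, with 2101, 2386 and 2072 genes at an unadjusted p under 0.05 and GFI1 at log2 fold changes of 2.37, 2.33 and 2.33. A mean above 5 TPM gave 164 genes, and GFI1 passed (adjusted p = 0.016). The replicate block gave 596 genes, with GFI1 as the 1 member called (log2 fold change 2.33, limma adjusted p = 0.000512). Same-numbered deviations correlated at 0.072 across genes. No label ties the numbers to a shared batch, so whether they pair the libraries is not known. The cause of these changes was not tested. With 1 library left out, the remaining one being assumed to vary like the other fraction, 18 to 65 genes were called, 18 without GFP-negative replicate 1, and 1 member, GFI1, each time, at log2 fold changes of 2.30 to 2.36. Upper quartile scaling moved the median of all genes to -0.01, and HDAC1 to -0.01. Signs also turned with a library left out: values ran from -0.0046 to 0.25 for GFI1B, -0.13 to 0.29 for RCOR2, -0.00016 to 0.19 for RCOR3, -0.27 to 0.31 for HDAC1 and -0.15 to 0.04 for HDAC2. KDM1A and RCOR1 stayed above 0 and did not pass in any of the 10 alternatives. Differences in share, in percentage points, ran from 32.4 to 35.8 for GFI1, 2.59 to 5.64 for RCOR1, -5.37 to -0.925 for RCOR2, -2.21 to 0.276 for RCOR3 and -1.91 to 4.62 for HDAC1. With 2 libraries per fraction, the intervals of the members that did not pass still allow log2 differences such as 0.78 for KDM1A and 0.86 for RCOR1.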

Other observations

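Ratios between the repressors and their shared enzyme were computed after the levels had been seen and are given without a test. GFI1 stood at 0.539 and 0.704 TPM per TPM of KDM1A in GFP-positive libraries, against 0.151 and 0.158 in GFP-negative libraries. GFI1B stood at 0.432 and 0.647 per KDM1A in GFP-positive libraries, against 0.596 and 0.666 in GFP-negative libraries, with overlap. Added together, GFI1 and GFI1B stood at 0.971 and 1.35 per KDM1A in GFP-positive libraries, against 0.747 and 0.825 in GFP-negative libraries, so their sum exceeded KDM1A in 1 of 4 libraries, the second GFP-positive one. The RCOR sum per KDM1A was 0.653 and 0.808 in GFP-positive libraries, against 0.894 and 0.788 in GFP-negative libraries. The sum of HDAC1 and HDAC2 per KDM1A was 2.07 and 2.0 in GFP-positive libraries, against 2.62 and 2.75 in GFP-negative libraries. Replicates of this last ratio lay closer together than those of HDAC1 itself in GFP-positive cells, where HDAC1 and KDM1A were both higher in the first library. TPM ratios are ratios of transcripts, and protein was not measured.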
